A study of Medicago sativa with 3 samples.

Results

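The transcripts described here carry the annotation of ethylene synthesis and ethylene perception in alfalfa (Medicago sativa subspecies falcata). They were chosen by the words of the best protein match, which had to name 1-aminocyclopropane-1-carboxylate (ACC) synthase or oxidase, an ethylene receptor, EIN2 or EIN3, and by a legume species in both the protein and the nucleotide match. These rules gave 115 of 95646 assembled transcripts, of which 52669 had a legume match in both annotations. By class, 9 were ACC synthases, 78 carried the name of ACC oxidase, 10 were ethylene receptors, 1 was EIN2, 12 were EIN3 or EIN3-like (EIL) proteins and 5 were EIN3-binding F-box proteins. The members were assembled de novo, so 58 of them were contigs that shared 22 clusters and the other 57 were single transcripts.

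The 3 plant groups were compared, each as 1 RNA library from a bulk of 10 plants with balanced leaf, stem and root RNA. The intolerant grazed library came from MF200402 plants, which had recovered poorly from sheep grazing, and the tolerant grazed library came from MF200401 plants, which had recovered rapidly. The tolerant ungrazed library (MF200401-1) also came from MF200401 plants, kept in a separate fenced block and clipped to about the height of the grazed plants when grazing ended. Tissue was taken a week after the sheep were removed. Because the ungrazed plants stood in their own block, an effect of grazing and one of the block cannot be told apart in the tolerant plants. No intolerant ungrazed library was analysed here. Between the grazed populations, a difference present without grazing and a different response to grazing therefore cannot be told apart. With 1 library per group there is no replicate spread and no test across plants, and every interval below covers counting error only. In whole-plant bulks, fewer cells of a type and less RNA per cell cannot be told apart.

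Ethylene is a gaseous plant hormone that is made from S-adenosylmethionine by way of ACC. ACC synthase catalyses the committed step and ACC oxidase the last one. In Arabidopsis the receptors ETR1, ERS1, ETR2, ERS2 and EIN4 repress signalling when ethylene is absent, and EIN2 carries the signal from the endoplasmic reticulum to the nucleus. EIN3 switches on ethylene-response genes, and the F-box proteins EBF1 and EBF2 direct EIN3 to degradation. In legumes the hormone is also known for restraining root nodulation, and in many plants for responses to wounding, senescence and soil compaction.

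The intolerant grazed library had 22.3 M (mega) aligned fragments, the tolerant grazed one 22.7 M and the tolerant ungrazed one 22.8 M. The members took 0.278%, 0.227% and 0.208% of these fragments, in the same order of libraries. Values are given in FPKM, fragments per kilobase of transcript and mega-fragment aligned, and a transcript is called past the fold when its log2 ratio of FPKM is at least 1 in absolute value. The transcripts were 200 to 3253 bases long, with a median of 722, and 58 of the 115 had at least 100 fragments in every library, while 7 had at most 3 fragments in some library. The 48423 transcripts that reached 1 FPKM in each of the 3 libraries had a median log2 ratio of 0.09 for tolerant grazed against tolerant ungrazed and 0.24 for intolerant grazed against tolerant grazed. Values after subtracting these medians are called rescaled below. Legume-matched transcripts took 88.8% of fragments in intolerant grazed, 80.4% in tolerant grazed and 79.9% in tolerant ungrazed plants.

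Leaf genes were also unequal among the libraries. The 12 chlorophyll a/b-binding protein transcripts summed to 11250 FPKM in the intolerant grazed, 4461 in the tolerant grazed and 2618 in the tolerant ungrazed library. The 10 Rubisco small subunit transcripts summed to 13799, 6419 and 7419 FPKM in these libraries, and none of either list was at 0. Of the stem lists, the 29 laccases summed to 183, 115 and 136 FPKM, with 1 at 0 in the intolerant grazed library, and the 32 fasciclin-like arabinogalactan proteins to 676, 740.1 and 600 FPKM, with 2 at 0 in the intolerant grazed and 1 at 0 in the tolerant grazed library. The laccase sum hides its members. In tolerant grazed against tolerant ungrazed plants 18 of the 29 were past the fold higher and 3 lower, beside 15.7% and 8.78% of legume-matched transcripts. No legume-matched transcript carried the words leghemoglobin or casparian strip membrane protein, so nodule and endodermis were without a marker. The part of leaf share in the results below was not tested.

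Across the 115 members, 15 were past the fold higher and 9 lower in tolerant grazed against tolerant ungrazed plants. This is 13% and 7.83% of the members, beside 15.7% and 8.78% of all legume-matched transcripts and 16.9% and 24.4% of all transcripts. In intolerant grazed against tolerant grazed plants 29 members were higher and 10 lower, which is 25.2% and 8.7%, beside 22.3% and 13.4% of legume-matched transcripts and 25.5% and 23.6% of all transcripts. As a whole the list therefore sat near its background in both comparisons. Its median log2 ratio was 0.07 against 0.12 for legume-matched transcripts in the tolerant plants, and 0.23 against 0.28 between the populations. Rescaling turned the second split into 25 higher and 18 lower, and the Poisson test of the study's methods at an adjusted p of at most 0.001, which compares the 2 libraries and not the conditions, left 14 of the 24 transcripts in the tolerant plants. The classes differed from each other in ways that the whole list does not show, and the 2 comparisons share the tolerant grazed library, so that a value low or high in it enters both.

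**Figure D1:**
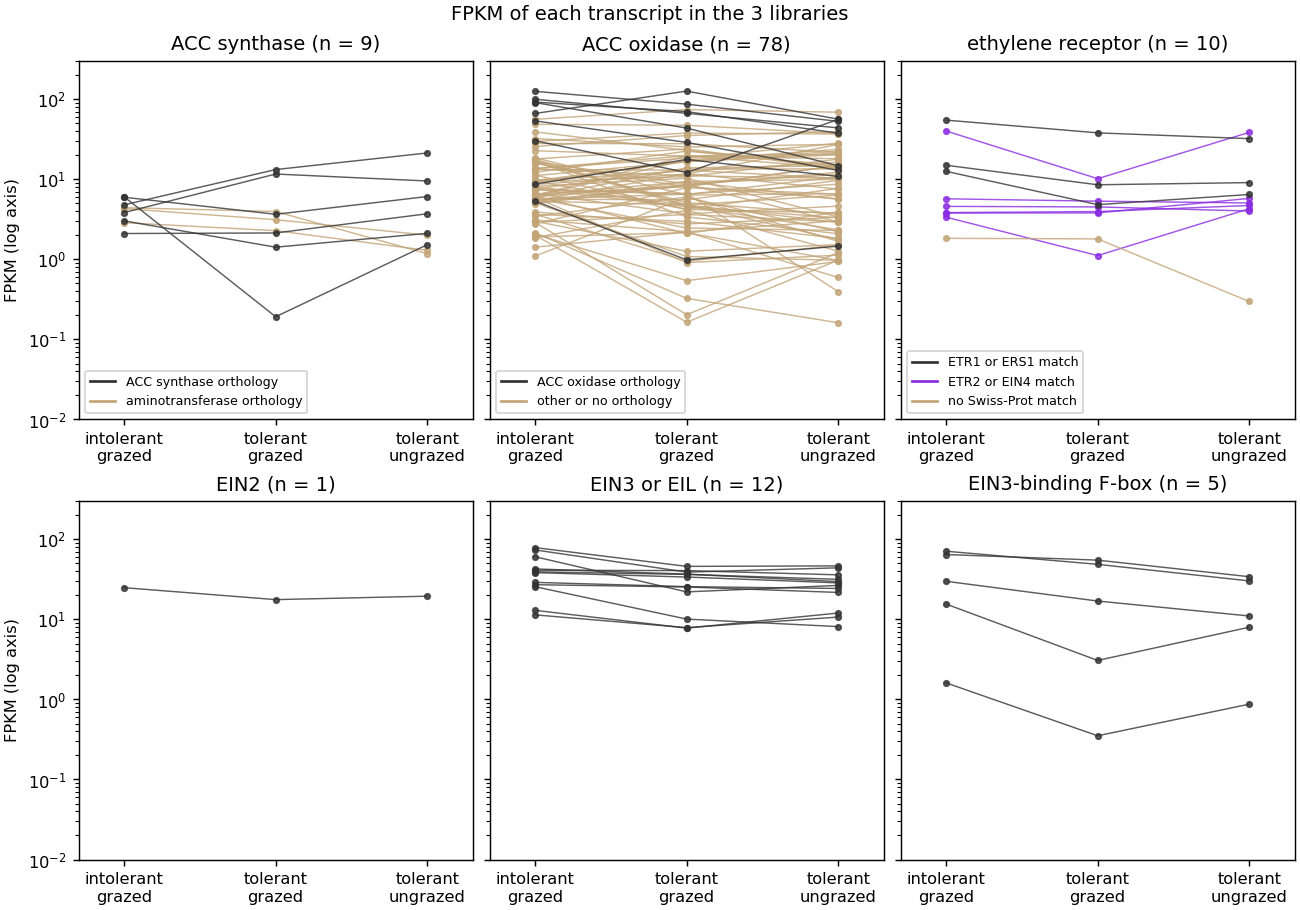
FPKM of each of the 115 transcripts (points joined by lines, log axis) in the intolerant grazed, tolerant grazed and tolerant ungrazed libraries, 1 panel per class. The 9 transcripts with ACC oxidase orthology reach 127 FPKM and mostly lie above the transcripts that share only the name, and the ETR2-matched receptor CL13028.Contig1_All dips to 10.2 FPKM in the tolerant grazed library.

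ACC synthase makes the ethylene precursor. Its 9 transcripts under the naming rule had at most 21.3 FPKM in any library. A further ACC synthase outside the rule, CL7088.Contig1_All, had 12.3 FPKM in intolerant grazed, 23.02 in tolerant grazed and 21.4 in tolerant ungrazed plants. KEGG orthology put 6 of the 9 in ACC synthase and 3 (Unigene31770_All, Unigene20908_All and Unigene13683_All) in an aminotransferase entry, although their best protein matches name ACC synthase. By Swiss-Prot, Unigene31770_All matched Arabidopsis ACS6, whereas Unigene20908_All and Unigene13683_All matched ACS10. The KEGG split, like the other subgroups below, was made after the values were seen. The 6 orthologous transcripts summed to 25.8 FPKM in the intolerant grazed, 32.3 in the tolerant grazed and 44.3 in the tolerant ungrazed library. The 3 transcripts in the aminotransferase entry had the other order, 11.6, 9.37 and 4.48 FPKM.

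CL12525.Contig1_All, the most abundant of the 9, had 4.80 FPKM in intolerant grazed, 13.2 in tolerant grazed and 21.3 in tolerant ungrazed plants. It was lowest in the intolerant and highest in the ungrazed library, with 207, 580 and 942 fragments. The log2 ratio was -0.69 (95% interval -0.84 to -0.54) for tolerant grazed against tolerant ungrazed, short of the fold, and -1.46 (-1.70 to -1.23) for intolerant grazed against tolerant grazed, past it. Unigene23675_All, whose closest Swiss-Prot match is Arabidopsis ACS7, had 3.85, 11.6 and 9.53 FPKM in the 3 libraries. Here both tolerant libraries were alike (log2 ratio 0.29, 0.09 to 0.49), and the intolerant library was lower than the tolerant grazed one by a log2 ratio of -1.60 (-1.88 to -1.32). These were the only 2 of the 9 lower past the fold between the populations, and they held 580 and 446 of the 1203 fragments of the class in the tolerant grazed library.

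The other ACC synthases rested on few fragments. CL12525.Contig2_All, a contig of 230 bases from the same cluster as the leading transcript, had 31 fragments in the intolerant grazed, 1 in the tolerant grazed and 8 in the tolerant ungrazed library. Its log2 ratios of 4.98 (2.39 to 10.33) between the populations and -2.99 (-8.46 to -0.09) in the tolerant plants therefore span a wide range. Unigene21637_All had 5.97, 3.66 and 6.09 FPKM, with intervals that reached 0 or nearly so in both comparisons. Unigene31770_All, in the aminotransferase entry by KEGG only, had 4.43, 3.96 and 1.18 FPKM. Its log2 ratio in tolerant grazed against tolerant ungrazed plants was 1.75 (0.38 to 3.35), from 20 and 6 fragments. Because FPKM weights the short contigs heavily, the summed FPKM of the class gave a log2 ratio of only -0.16 between the populations, while its summed fragments, 616 in intolerant grazed and 1203 in tolerant grazed plants, gave an interval of -1.09 to -0.80.

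Most transcripts that carry the name of ACC oxidase were not ACC oxidases by orthology. Only 9 of the 78 had the KEGG orthology of ACC oxidase, and the other 69 fell to other 2-oxoglutarate-type oxygenase entries or to none. Of these 69, 45 matched Swiss-Prot entries called ACC oxidase homologs, 5 had no Swiss-Prot match, and the others included matches to SRG1, a senescence-related protein, and F6H1, a coumarin-forming hydroxylase of Arabidopsis. The 9 orthologous transcripts summed to 573 FPKM in intolerant grazed, 454 in tolerant grazed and 287 in tolerant ungrazed plants. The 69 others summed to 757, 766 and 756 FPKM. The log2 ratio of the sums for tolerant grazed against tolerant ungrazed was 0.66 for the 9 and 0.02 for the 69. Between intolerant grazed and tolerant grazed plants it was 0.34 for the 9, or 0.10 rescaled, and -0.02 for the 69, or -0.25 rescaled. The chlorophyll a/b-binding list had the same order of libraries as the 9 (log2 ratio 0.77 in the tolerant plants), the Rubisco small subunit list did not (-0.21), and the part of leaf share was not tested.

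**Figure D2:**
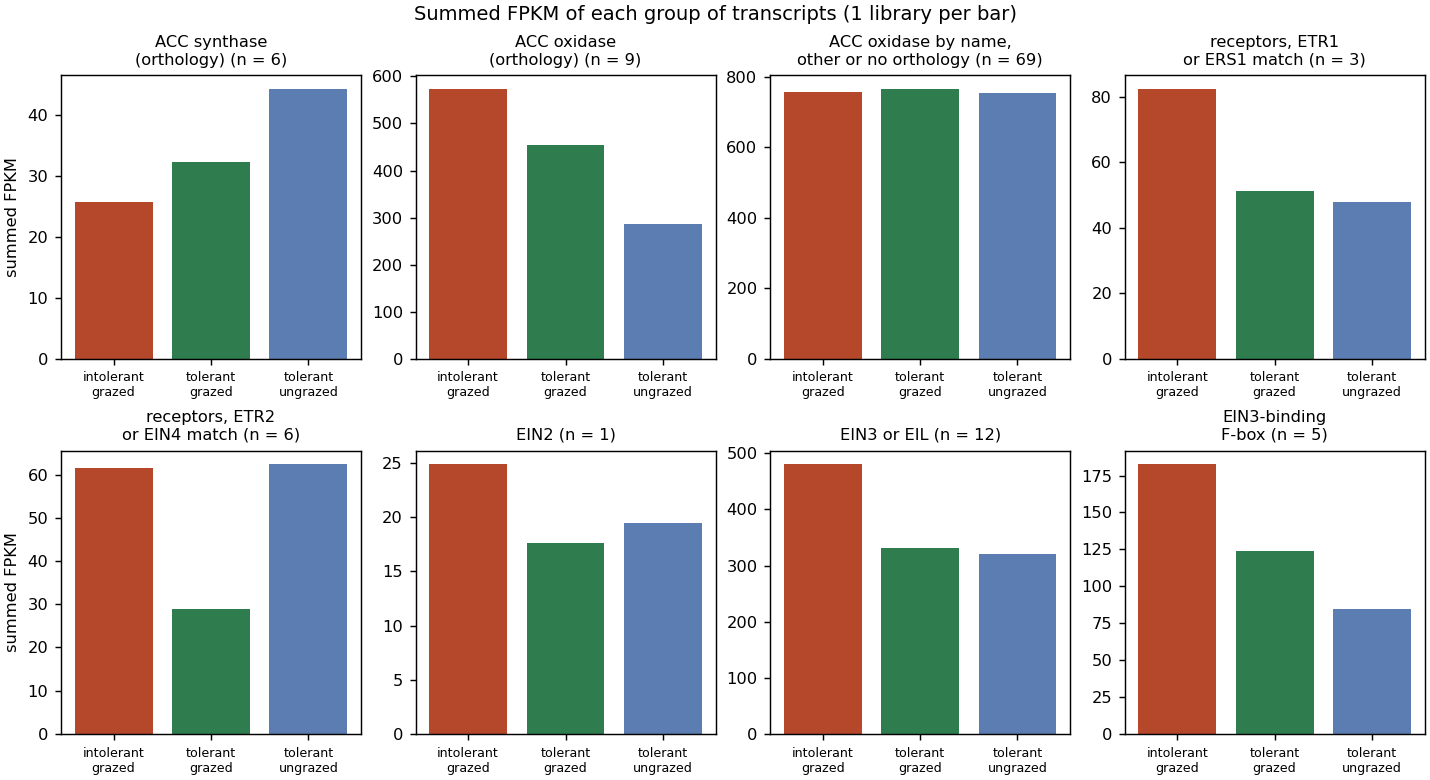
Summed FPKM (bars from 0, 1 library per bar, no error because there are no replicates) of 8 groups of transcripts in the intolerant grazed, tolerant grazed and tolerant ungrazed libraries. The 9 ACC oxidases by orthology sum to 573, 454 and 287 FPKM, whereas the 69 transcripts with the name alone stay between 756 and 766 FPKM, and the ETR2- or EIN4-matched receptors sum to 61.4, 28.9 and 62.4 FPKM.

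The cluster CL11, whose 4 contigs match an ACC oxidase of Prunus mume, held most of the RNA of the 9 in all 3 libraries. CL11.Contig3_All had 126 FPKM in intolerant grazed, 86.9 in tolerant grazed and 53.0 in tolerant ungrazed plants. CL11.Contig4_All had 100.1, 66.8 and 43.9 FPKM, and CL11.Contig1_All had 92.2, 70.1 and 37.7 FPKM. These 3 contigs thus had the same order, highest in the intolerant and lowest in the ungrazed library. CL11.Contig2_All broke it, with 66.5 FPKM in intolerant grazed, 127 in tolerant grazed and 56.4 in tolerant ungrazed plants. It was higher past the fold in tolerant grazed against tolerant ungrazed plants (log2 ratio 1.16, 1.08 to 1.25). Between the populations its log2 ratio was -0.93 (-1.01 to -0.84), just inside the fold, and -1.16 rescaled. Summed over the 4 contigs the cluster had 384, 350.3 and 191 FPKM, so the opposite direction of 1 contig left a log2 ratio of 0.88 in the tolerant plants and 0.13, or -0.10 rescaled, between the populations. Contigs of a cluster share sequence, and how uniquely aligned fragments were divided among them was not tested.

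A pair of ACC oxidases with pea matches followed the same order as the 3 CL11 contigs, with wider ratios. CL5698.Contig2_All, whose best protein match is from alfalfa itself, had 90.8 FPKM in intolerant grazed, 43.6 in tolerant grazed and 14.8 in tolerant ungrazed plants. Its log2 ratios were 1.56 (1.33 to 1.80) for tolerant grazed against tolerant ungrazed and 1.06 (0.92 to 1.20) for intolerant grazed against tolerant grazed, and the second was 0.82 rescaled. Unigene25083_All had 53.8, 28.9 and 12.9 FPKM, with log2 ratios of 1.16 (0.92 to 1.40) and 0.89 (0.73 to 1.06). Both transcripts were named because the whole orthology group is described, after their values were seen. CL5698.Contig1_All, a 269-base contig, had 32 fragments in intolerant grazed, 6 in tolerant grazed and 9 in tolerant ungrazed plants, and a log2 ratio of 2.44 (1.16 to 3.99) between the populations.

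The remaining orthologous transcripts each had a pattern of their own. Unigene569_All, closest to Arabidopsis ACO1, had 30.3 FPKM in intolerant grazed, 12.1 in tolerant grazed and 55.9 in tolerant ungrazed plants. It was the 1 ACC oxidase of the 9 that was past the fold lower in tolerant grazed against tolerant ungrazed plants, with a log2 ratio of -2.20 (-2.38 to -2.03) from 318 and 1476 fragments. Between the populations its log2 ratio was 1.32 (1.13 to 1.51). Unigene9294_All, closest to Arabidopsis ACO5, had 8.73, 17.7 and 10.9 FPKM and was highest in the tolerant grazed library. Its log2 ratios were 0.70 (0.47 to 0.94) and -1.02 (-1.27 to -0.77). In the tolerant plants 3 of the 9 were past the fold higher and 1 lower, and between the populations 3 were higher and 1 lower, or 2 and 2 when rescaled. Unrescaled, this is 33.3% and 11.1% in each comparison. Of legume-matched transcripts 15.7% were higher and 8.78% lower in the tolerant plants, and 22.3% and 13.4% between the populations.

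Among the 69 transcripts with the name alone, 10 were higher and 3 lower past the fold in tolerant grazed against tolerant ungrazed plants, and 17 higher and 7 lower in intolerant grazed against tolerant grazed plants. These shares, 14.5% and 4.35%, then 24.6% and 10.1%, stand beside the 15.7% and 8.78%, then 22.3% and 13.4%, of legume-matched transcripts. Rescaling changed the second split to 15 higher and 14 lower. The widest ratio in the tolerant plants was that of Unigene28829_All, with 7.39 FPKM in intolerant grazed, 6.68 in tolerant grazed and 0.396 in tolerant ungrazed plants. It had 67 fragments in the tolerant grazed and 4 in the tolerant ungrazed library, a log2 ratio of 4.08 (2.65 to 5.99), and none past the fold between the populations (0.15, -0.35 to 0.65). Unigene17806_All (8.19, 10.3 and 3.38 FPKM), Unigene34077_All (3.45, 6.01 and 1.69 FPKM) and Unigene17133_All (1.88, 4.12 and 1.27 FPKM) had log2 ratios of 1.61, 1.83 and 1.70 in the tolerant plants. All were highest in the tolerant grazed library, and all were short (389, 338 and 311 bases). Unigene43803_All, with a match to the glucosinolate enzyme GSL-OH, was lower at 8.63 FPKM in intolerant grazed, 11.6 in tolerant grazed and 27.3 in tolerant ungrazed plants, a log2 ratio of -1.23 (-1.59 to -0.88) in the tolerant plants.

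Between the populations the oxygenases named here went in both directions. The SRG1-matched contig CL3104.Contig2_All had 16.8 FPKM in intolerant grazed, 3.39 in tolerant grazed and 2.09 in tolerant ungrazed plants, and a log2 ratio of 2.31 (2.03 to 2.59) for intolerant against tolerant grazed. All 3 contigs of its cluster were higher past the fold in that comparison, and their sum was 45.1, 12.2 and 8.24 FPKM. Unigene19955_All had 5.93, 0.91 and 1.13 FPKM and a log2 ratio of 2.70 (1.82 to 3.72). In the other direction stood Unigene29651_All, matched to F6H1, with 1.10, 5.95 and 2.22 FPKM and a log2 ratio of -2.43 (-3.01 to -1.89), and CL8893.Contig3_All, an ACC oxidase homolog, with 6.29, 19.6 and 20.5 FPKM and a ratio of -1.64 (-1.92 to -1.37). Its cluster did not share that fall. CL8893.Contig2_All had a ratio of 0.28 (0.08 to 0.48), CL8893.Contig4_All 0.23 (-0.33 to 0.80) and CL8893.Contig1_All, outside the legume rule, 0.80. The members of the cluster summed to 27.3, 37.1 and 41.6 FPKM, a log2 ratio of -0.44. CL5627.Contig4_All, also F6H1-matched, had 6.14, 17.5 and 23.7 FPKM and a log2 ratio of -1.51 (-1.76 to -1.26). All 4 contigs of its cluster were below 0 there, and 2 of them were past the fold. Unigene53288_All had 2.77, 7.87 and 6.53 FPKM and a ratio of -1.50 (-2.39 to -0.68).

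**Figure D3:**
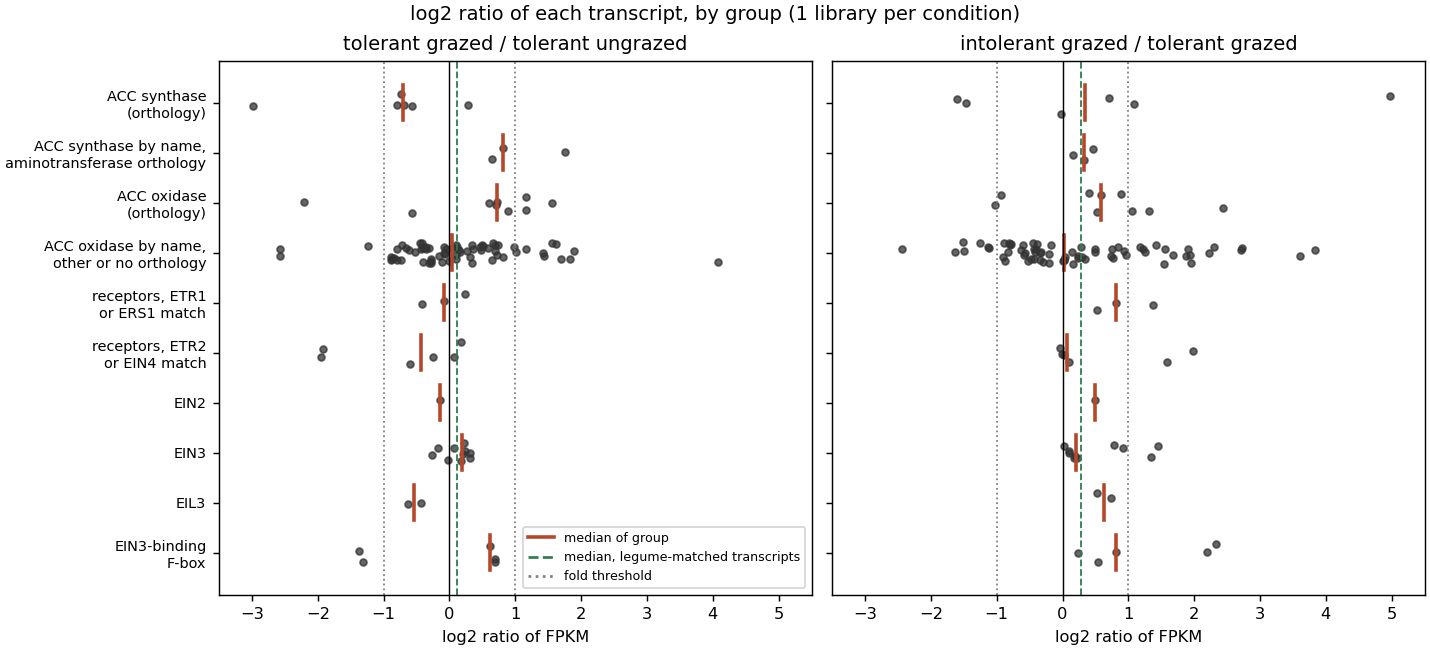
Log2 ratio of FPKM of each transcript (points, spread vertically for sight only) by group, for tolerant grazed over tolerant ungrazed (left) and intolerant grazed over tolerant grazed (right). Unigene2405_All, with no Swiss-Prot match, is not drawn. Bars mark group medians, the dashed line the median of legume-matched transcripts (0.12 left, 0.28 right) and dotted lines the fold threshold. The ACC oxidases by orthology have a median of 0.72 at left, and the 10 EIN3 transcripts lie between -0.27 and 0.31 there.

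The receptors were sorted by type. Swiss-Prot matches put 3 transcripts with ETR1 or ERS1, the subfamily that keeps a histidine kinase domain in Arabidopsis, and 6 with ETR2 or EIN4, the subfamily in which that domain is degenerate, while Unigene2405_All had no match. The ETR1- and ERS1-type transcripts summed to 82.5 FPKM in intolerant grazed, 51.4 in tolerant grazed and 47.8 in tolerant ungrazed plants. The ETR2- and EIN4-type transcripts summed to 61.4, 28.9 and 62.4 FPKM, lowest in the tolerant grazed library. The log2 ratio of sums for tolerant grazed against tolerant ungrazed was 0.11 for the first subfamily and -1.11 for the second. For intolerant grazed against tolerant grazed it was 0.68 and 1.09, or 0.45 and 0.85 rescaled. The values of the second subfamily came from its 2 ETR2-type contigs, both of the cluster CL13028. Their sums had log2 ratios of -1.92 in the tolerant plants and 1.94 between the populations, against -0.15 and 0.03 for the 4 EIN4-type transcripts.

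CL13028.Contig1_All, the longer ETR2-type transcript at 3253 bases, had 40.1 FPKM in intolerant grazed, 10.2 in tolerant grazed and 38.6 in tolerant ungrazed plants. The intolerant grazed and tolerant ungrazed libraries were thus close to each other, with 2909 and 2863 fragments, and the tolerant grazed library stood apart with 751. Its log2 ratio was -1.92 (-2.04 to -1.80) for tolerant grazed against tolerant ungrazed and 1.98 (1.86 to 2.09) for intolerant grazed against tolerant grazed. The second contig of the cluster, CL13028.Contig2_All, had 3.36, 1.11 and 4.29 FPKM and log2 ratios of -1.94 (-2.54 to -1.38) and 1.59 (1.01 to 2.21). Both contigs of the cluster therefore had the same order around the tolerant grazed library, and both stayed past the fold in both comparisons when rescaled. Of the 10 receptors chosen by the rule they were the 2 lower past the fold in the tolerant plants, and both comparisons rest on the single tolerant grazed library.

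The 4 EIN4-type transcripts among the 10 had no value past the fold in either comparison. CL6543.Contig2_All had 5.71 FPKM in intolerant grazed, 5.34 in tolerant grazed and 5.07 in tolerant ungrazed plants, and CL6543.Contig1_All had 3.84, 3.96 and 4.71 FPKM. Unigene10999_All had 4.59, 4.52 and 4.02 FPKM, and CL6464.Contig1_All had 3.79, 3.80 and 5.77 FPKM. Together these 4 summed to 17.9, 17.6 and 19.6 FPKM, and the log2 ratio of the sums was -0.15 in the tolerant plants and 0.03 between the populations, with intervals of the summed fragments of -0.27 to 0.08 and -0.13 to 0.22.

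Among the first subfamily the ERS1-type Unigene21308_All was the most abundant receptor, with 54.9 FPKM in intolerant grazed, 38.1 in tolerant grazed and 32.2 in tolerant ungrazed plants. The ETR1-type Unigene15322_All had 14.99, 8.55 and 9.10 FPKM. Unigene6032_All, also ETR1-type, had 12.6, 4.83 and 6.46 FPKM. All 3 were highest in the intolerant library, rescaled or not, with log2 ratios against tolerant grazed plants of 0.53 (0.45 to 0.61), 0.81 (0.61 to 1.01) and 1.38 (1.05 to 1.72), and none was past the fold in the tolerant plants. Unigene2405_All, of 294 bases, had 12 fragments in intolerant grazed, 12 in tolerant grazed and 2 in tolerant ungrazed plants, and its log2 ratio in the tolerant plants was 2.60 (0.43 to 5.80).

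EIN2, the membrane protein on which ethylene responses depend, was carried by Unigene12330_All at 24.9 FPKM in intolerant grazed, 17.7 in tolerant grazed and 19.5 in tolerant ungrazed plants. Neither comparison passed the fold. The log2 ratio was -0.14 (-0.25 to -0.03) in the tolerant plants and 0.50 (0.39 to 0.60) between the populations, or 0.26 rescaled.

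Of the 12 EIN3 and EIL transcripts, 10 matched EIN3, a transcription factor at the end of the pathway, and 2 matched EIL3. The 12 together summed to 481 FPKM in intolerant grazed, 332 in tolerant grazed and 320.2 in tolerant ungrazed plants. In the tolerant plants 0 of the 12 passed the fold, and log2 ratios ran from -0.63 to 0.31. Counting intervals there lay wholly above 0 for 5 of the EIN3-matched and wholly below 0 for the 2 EIL3-matched transcripts. All 12 were highest in the intolerant grazed library, beside 54.7% of legume-matched transcripts, but only 4 of the 12 after rescaling. The leaf lists were higher in that library too, with log2 ratios against tolerant grazed plants of 1.33 for chlorophyll a/b-binding proteins and 1.10 for Rubisco small subunits, and their part was not tested. Between the populations 2 of the 12 (16.7%) passed the fold, both higher, beside 22.3% of legume-matched transcripts. Unigene24485_All had 78.8, 46.0 and 46.6 FPKM, with a log2 ratio of -0.02 (-0.13 to 0.09) in the tolerant plants and 0.78 (0.68 to 0.88) between the populations. The 2 past the fold were CL6002.Contig5_All (60.6, 22.1 and 26.6 FPKM, log2 ratio 1.46) and Unigene18256_All (25.6, 10.1 and 8.13 FPKM, log2 ratio 1.34).

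The 8 contigs of the cluster CL6002 show how far transcripts of 1 cluster can part. Its 6 contigs of 2399 to 2604 bases had log2 ratios of 0.02 to 0.22 between the populations, and CL6002.Contig1_All among them had 41.1 FPKM in intolerant grazed, 40.7 in tolerant grazed and 36.0 in tolerant ungrazed plants. The short contigs, CL6002.Contig5_All at 262 bases and CL6002.Contig8_All at 292 bases, had ratios of 1.46 (1.16 to 1.76) and 0.92 (0.70 to 1.14). CL6002.Contig8_All had 73.7, 39.0 and 44.1 FPKM. Summed FPKM gave a log2 ratio of 0.54 for the class between the populations, or 0.30 rescaled, whereas its summed fragments, 16867 in intolerant grazed and 13959 in tolerant grazed plants, gave an interval of 0.26 to 0.33. The EIL3-type pair in the cluster CL9293 had log2 ratios of -0.63 (-0.81 to -0.45) and -0.44 (-0.66 to -0.22) in the tolerant plants, with sums of 24.4, 15.7 and 22.7 FPKM.

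**Figure D4:**
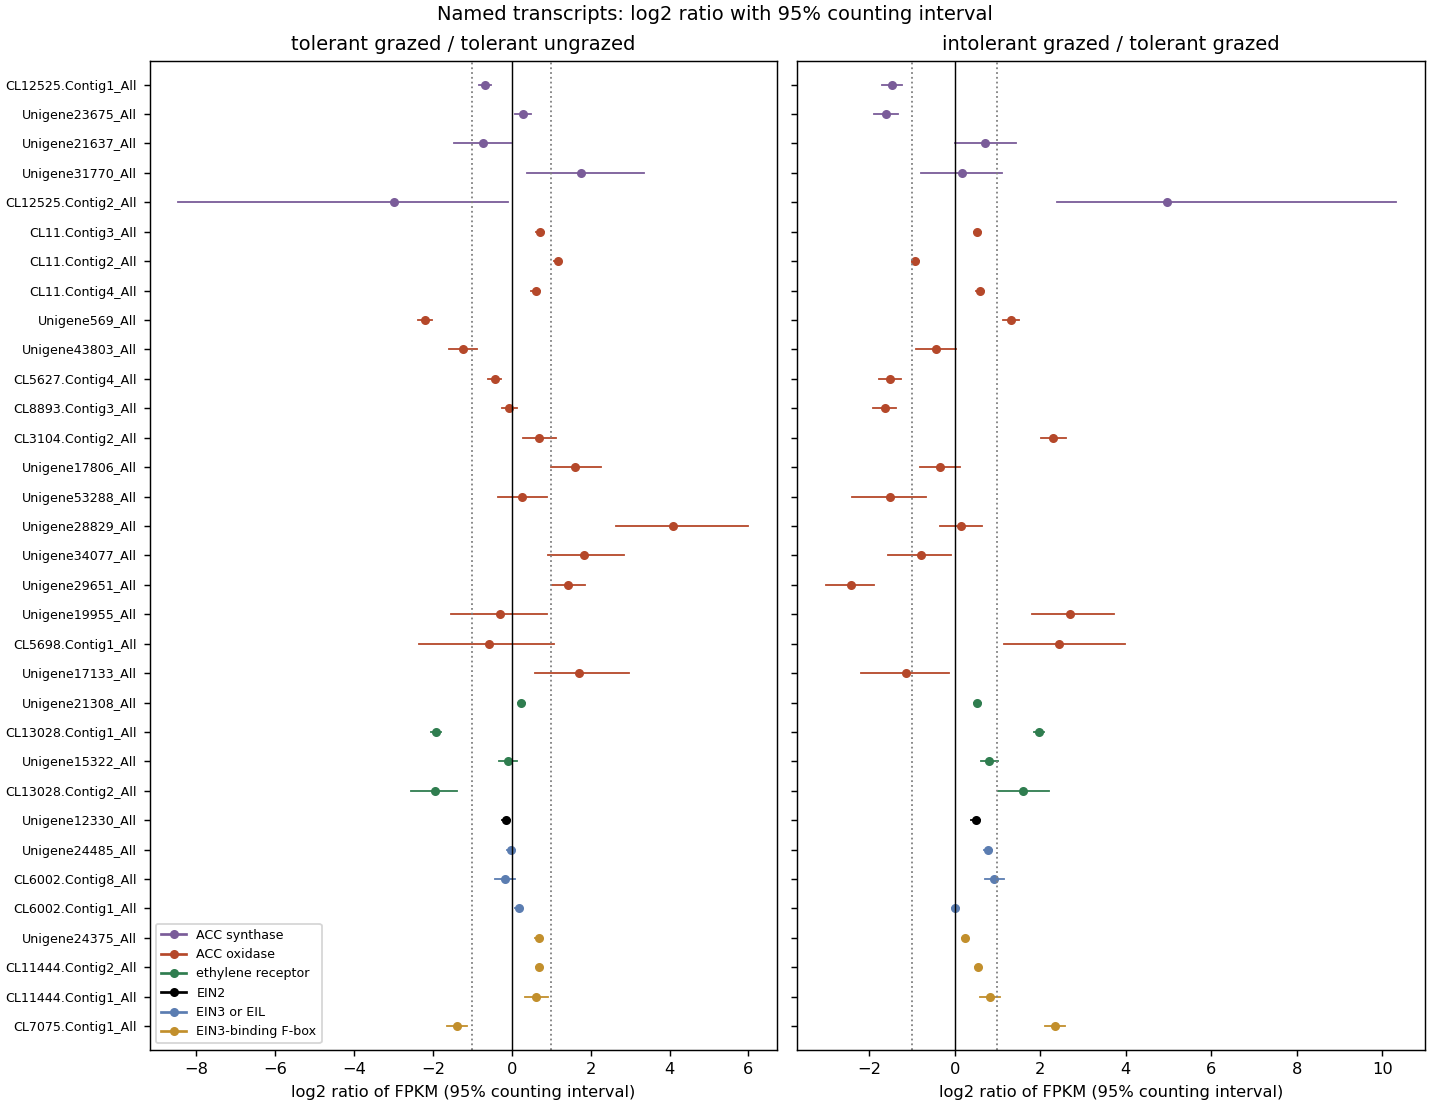
Log2 ratios of FPKM (points) with 95% counting intervals (lines) of the 33 transcripts named by rule, coloured by class, for tolerant grazed over tolerant ungrazed (left) and intolerant grazed over tolerant grazed (right). Dotted lines mark the fold threshold. The intervals of CL13028.Contig1_All, -2.04 to -1.80 and 1.86 to 2.09, lie wholly past it on opposite sides.

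The EIN3-binding F-box transcripts summed to 183 FPKM in intolerant grazed, 124 in tolerant grazed and 84.3 in tolerant ungrazed plants. The log2 ratio of the sums was 0.56 in the tolerant plants and 0.56 between the populations, or 0.47 and 0.32 rescaled. CL11444.Contig2_All had 71.1, 48.8 and 30.3 FPKM, Unigene24375_All had 64.7, 55.0 and 34.2 FPKM, and CL11444.Contig1_All had 29.9, 17.0 and 11.04 FPKM. All 3 were highest in the intolerant and lowest in the ungrazed library. Their log2 ratios of 0.69 (0.61 to 0.77), 0.69 (0.60 to 0.78) and 0.62 (0.33 to 0.91) in the tolerant plants lay close together, short of the fold but above the legume-matched median of 0.12. Between the populations they were 0.54, 0.23 and 0.82, and the second was -0.0027 when rescaled.

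CL7075.Contig1_All, also an EBF1 match by Swiss-Prot though with a weak best protein match, did not share that pattern. It had 15.5 FPKM in intolerant grazed, 3.07 in tolerant grazed and 7.98 in tolerant ungrazed plants. The tolerant grazed library was lowest with 178 fragments, against 466 in the tolerant ungrazed library, a log2 ratio of -1.38 (-1.63 to -1.13). Against the 886 fragments of the intolerant grazed library the log2 ratio was 2.34 (2.10 to 2.58). Unigene8124_All had 9, 2 and 5 fragments in the 3 libraries, too few to place (log2 ratios 2.19, -0.08 to 5.44 between the populations, and -1.31, -4.70 to 1.30 in the tolerant plants).

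Other genes of the pathway were taken by annotation words with the same legume rule. S-adenosylmethionine synthetase, which makes the substrate of ACC synthase, had 6 transcripts summing to 953 FPKM in intolerant grazed, 1055 in tolerant grazed and 929.9 in tolerant ungrazed plants. Of these 1 was higher (16.7%) and 2 lower (33.3%) past the fold in the tolerant plants, and 0 between the populations. For this and the other short lists here, the legume-matched shares in the tolerant plants were 15.7% higher and 8.78% lower. Between the populations they were 22.3% and 13.4%, and lists this short were not tested against them. The leading CL503.Contig1_All had 503, 744 and 601 FPKM. The 5 ETO1-type transcripts, whose Arabidopsis counterpart directs ACC synthase to degradation, had 0 past the fold in either comparison, and CL6791.Contig2_All led them with 18.8, 14.2 and 12.3 FPKM. The 8 transcripts of RAN1, a copper transporter that supplies the receptors, had 1 lower in the tolerant plants and 1 higher between the populations, and CL958.Contig1_All had 13.4, 25.9 and 18.7 FPKM.

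Methionine salvage recovers the methyl-thio group left over by ACC synthase. Its 4 methylthioadenosine nucleosidase transcripts summed to 144 FPKM in intolerant grazed, 73.6 in tolerant grazed and 50.5 in tolerant ungrazed plants. In each comparison 2 of the 4 (50%) were higher past the fold, beside 15.7% and then 22.3% of legume-matched transcripts. The widest ratio in the tolerant plants, 4.79, came from a transcript with 0.277 FPKM in the tolerant grazed and 0 in the tolerant ungrazed library. That ratio therefore rests on the value put in place of 0. The leading Unigene27220_All had 56.4, 56.3 and 41.9 FPKM. The 2 methylthioribose kinases summed to 9.08, 3.70 and 6.62 FPKM, and Unigene6685_All led them with 6.91, 2.82 and 3.63 FPKM. Downstream, 129 ethylene-responsive transcription factors had 24 higher and 15 lower in the tolerant plants, which is 18.6% and 11.6% beside 15.7% and 8.78% of legume-matched transcripts. Between the populations 33 were higher and 23 lower, which is 25.8% and 18% of the 128 with a value, beside 22.3% and 13.4%. Their most abundant member, Unigene12890_All, had 146 FPKM in intolerant grazed, 116 in tolerant grazed and 303 in tolerant ungrazed plants, a log2 ratio of -1.39 (-1.44 to -1.33) in the tolerant plants. No transcript matched the words for RTE1 or acireductone dioxygenase under this rule. The words for EBF matched none beyond the EIN3-binding F-box members described above, which these lists left out.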

How the data were processed

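The authors assembled the reads of 3 libraries de novo with Trinity, clustered the contigs with TGICL and deposited, for each transcript, raw counts of uniquely aligned fragments, FPKM values and database matches; aligner settings and versions are not given in the sources used here. FPKM recomputed from the deposited counts and lengths differed by at most 5e-05. Per-sample columns left out numbered 0. The members and lists were chosen with earlier results of these data known, and the orthology subgroups were made after values were seen.

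With 1 library per group no test across plants was possible. Log2 ratios of FPKM were taken with 0 replaced by 0.01 and called at 1 or more in absolute value, intervals are exact Clopper-Pearson 95% intervals of the ratio of fragments, and the floor was 3 fragments, which is 0.135, 0.132 and 0.131 FPKM at 1000 bases in the intolerant grazed, tolerant grazed and tolerant ungrazed library. Intervals and floors cover counting error only.

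Named are, per class, the 3 members with the highest mean FPKM and, per comparison, the 5 highest and 5 lowest log2 ratios among members with at least 20 fragments over both libraries (33 transcripts), and the most abundant member of each further list; other names were added after their values were seen. The alternatives were 1 or 0.1 added to FPKM, minimum FPKM or fragments, a threshold of 2, a Poisson test with Benjamini-Hochberg adjustment, 3 other scalings, 2 other choices of members, sums per cluster, and sums without the leading member. The Poisson test together with the fold threshold was tried on simulated counts. These had Poisson error only, without variation among plants, bulks or blocks. It recovered 149 of 200 changed transcripts for tolerant grazed against tolerant ungrazed (93053 transcripts). For intolerant grazed against tolerant grazed (86525 transcripts) it recovered 155 of 200. In both, 0 unchanged were called, which the simulated setting favours and which does not cover false calls from differences among plants or blocks. Of the members 0 matched the RefSeq gene table, and sequences were not used here. Python 3.11.15, numpy 2.4.6, pandas 2.3.3, scipy 1.17.1 and matplotlib 3.10.9 were used.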

Additional observations from a re-analysis of the deposited data

Results flagged for a closer look

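Fragments were also found on 4 transcripts that carry ethylene words but fall outside the legume rule, so no count or sum of members in the main setting holds them. Only the ratio of CL8893.Contig1_All was given above, beside its cluster. The 4 transcripts held 422 fragments in the intolerant grazed, 222 in the tolerant grazed and 296 in the tolerant ungrazed library. These are above the limit of 3 that a count of 0 allows. CL8893.Contig1_All, an ACC oxidase homolog, held most of them (323, 188 and 211 fragments). Unigene8381_All, matched to an apple ethylene receptor 2, had 51, 9 and 72 fragments, lowest in the tolerant grazed library with a log2 ratio of -2.99 in the tolerant plants and 2.53 between the populations. Unigene19326_All, a receptor, had 33, 20 and 8 fragments, and Unigene36832_All, an ACC oxidase-like transcript, had 15, 5 and 5. Another transcript that met the words was a voltage-dependent anion channel and is left out. A gap of 1 sample to its group, and a contrast repeated in other groups, could not be examined with 1 library per group.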

How the results depend on the processing

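Of 160 alternative values of counts and class sums 94 stayed within 1.5 times or the counting interval and 66 moved. No class sum was past the fold in the main setting, so no change of sign past the fold could occur among them. Some small sums did change sign. For tolerant grazed against tolerant ungrazed plants ACC synthase went from -0.23 to 0.05 without its leading member. EIN3 or EIL went from 0.051 to -0.041 when rescaled. Between the populations ACC synthase went from -0.16 to 0.20 without its leading member, and ACC oxidase from 0.13 to -0.11 when rescaled. Of 330 alternative values of named transcripts 284 stayed and 46 moved. For tolerant grazed against tolerant ungrazed plants the count of 24 (15 higher, 9 lower) became 6 (2 and 4) at a threshold of 2 and 14 (9 and 5) with the Poisson test, and the lower count became 5 with a mean FPKM of at least 1 or at least 20 fragments. Chosen after seeing the data, it was 8 (3 and 5) with ethylene orthology numbers only and 11 (7 and 4) with members of at least 500 bases. For intolerant grazed against tolerant grazed plants the count of 39 (29 higher, 10 lower) became 11 (10 and 1) at a threshold of 2, 25 (18 higher) summed per cluster, 14 (11 and 3) with ethylene orthology numbers and 25 (17 higher) at 500 bases, and rescaling gave 18 lower.

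Log2 ratios of class sums for tolerant grazed against tolerant ungrazed plants were as follows. Rescaling gave 0.13 for ACC oxidase, -0.52 for receptors, -0.041 for EIN3 or EIL and 0.47 for F-box. TPM gave 0.34, -0.32, 0.16 and 0.67 for the same classes. Without the member with the most fragments ACC synthase was 0.05, ACC oxidase 0.19, receptors -0.83 and F-box 0.48. Orthology numbers gave -0.46 for ACC synthase and 0.66 for ACC oxidase, and 500 bases gave 0.29 for ACC oxidase and 0.12 for EIN3 or EIL. For intolerant grazed against tolerant grazed plants rescaling gave -0.39 for ACC synthase, -0.11 for ACC oxidase, 0.59 for receptors, 0.26 for EIN2, 0.30 for EIN3 or EIL and 0.32 for F-box. Totals of legume-matched fragments gave -0.30, -0.017, 0.68, 0.35, 0.39 and 0.42 for these 6 classes. TPM gave 0.032 for ACC oxidase, 0.73 for receptors, 0.44 for EIN3 or EIL and 0.46 for F-box. Without the leading member ACC synthase was 0.20, ACC oxidase 0.089, receptors 1.04 and EIN3 or EIL 0.60. Orthology numbers gave -0.32 for ACC synthase and 0.34 for ACC oxidase, and 500 bases gave -1.002 for ACC synthase, 0.20 for ACC oxidase and 0.36 for EIN3 or EIL. The cause was not tested. EIN2 has 1 member, so no sum without it was made. Depth limits the 7 members with at most 3 fragments in some library. No paired analysis was possible because the labels give no replicate numbers and each group is 1 library.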

Other observations

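KEGG orthology placed further legume-matched transcripts in the same pathway under other names. These lists were made after values were seen. The 3 ACC synthases CL7088.Contig1_All, Unigene21049_All and CL7088.Contig2_All summed to 26.4 FPKM in intolerant grazed, 51.2 in tolerant grazed and 46.6 in tolerant ungrazed plants. Their log2 ratios were 0.11 to 0.17 in the tolerant plants and -1.02 to -0.90 between the populations, and 1 of the 3 passed the fold there. The 7 CTR1-type kinases, whose Arabidopsis counterpart acts between the receptors and EIN2, summed to 57.2, 41.4 and 49.6 FPKM, and CL3228.Contig1_All led them with 15.1, 11.3 and 19.0 FPKM.

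Some EIN2-type contigs had a best protein match named sickle, after the Medicago truncatula gene whose loss gives many nodules, and these contigs were scarce. Unigene12330_All has the same EIN2 orthology and a Medicago truncatula match in KEGG, at 24.9, 17.7 and 19.5 FPKM. Which of these transcripts is the counterpart of the sickle gene was not tested, so the low values do not speak for that gene. CL6152.Contig2_All had 3.26 FPKM in intolerant grazed, 1.29 in tolerant grazed and 1.92 in tolerant ungrazed plants, and CL6152.Contig1_All had 0.708, 1.08 and 1.07 FPKM. The 2 short receptor transcripts called EIN4-like, Unigene10494_All and Unigene35337_All, had 5.67, 2.79 and 7.18 FPKM and 6.15, 2.62 and 5.35 FPKM. Both were lowest in the tolerant grazed library, from 16 to 57 fragments a library. Their log2 ratios were -1.36 (-2.14 to -0.63) and -1.03 (-1.99 to -0.13) in the tolerant plants. Between the populations they were 1.02 (0.25 to 1.83) and 1.23 (0.35 to 2.18). Unigene35337_All has its Swiss-Prot match in ETR2 and Unigene10494_All in EIN4. The level values of the EIN4-type members above therefore do not hold for every EIN4-matched transcript. The 3 further ACC oxidases by orthology summed to 22.6, 14.9 and 16.2 FPKM.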
